A study of Rattus norvegicus with 9 samples.

Results

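The miR-296 and miR-298 cluster is a pair of microRNA hairpins that lie side by side on rat chromosome 3. Each hairpin is cut into a 5p and a 3p arm, named for the end of the hairpin it comes from. The 4 mature arms, rno-miR-296-5p, rno-miR-296-3p, rno-miR-298-5p and rno-miR-298-3p, were taken by name from a count table of 762 rat miRNAs, of which 502 had a count and 304 were abundant enough to test. All 4 were present and in that set, and the prefix rno, for the rat, is left out from here on. The cluster was chosen by its log2 fold change in edited over differentiated cells, which earlier work on these data had shown to be large. Values of the edited cells are therefore a description, with no test. PDGF-BB against differentiated cells is tested, with the limit that it uses the same differentiated libraries. The edited libraries also enter that test, through the variation between replicates that the 3 groups share in the fit.

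The libraries hold small RNA of smooth muscle cells grown from rat aorta, with 3 groups and 3 libraries in each. The cells called differentiated had no treatment. A second group, PDGF-BB, was given that growth factor, which drives smooth muscle cells to divide, at a dose of 30 ng/ml during 24 h. The third group, edited, carried a lentivirus for the expression of Myocardin-F-LSD1. Myocardin switches on contractile genes together with the factor SRF, and LSD1 is a demethylase that acts on H3K4. In the labels both of these groups are de-differentiated, and the last is H3K4me2 edited. The protocol text gives 24 h without serum before treatment for every sample, the differentiated and edited ones included. It does not state separately that cells without PDGF-BB were starved. No group with a control virus was analysed here, and so effects of the virus and of its insert cannot be told apart. The sources used here name neither the promoter of the construct, nor strain or age of the rats, nor the number of cultures. Any p-value thus reflects how these libraries vary, which may be technical.

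In the mouse, miR-296 and miR-298 lie in the imprinted Gnas locus and are made from the paternal copy, as part of a transcript that runs antisense to Gnas. In human endothelial cells miR-296 lowers HGS, a sorting protein that sends growth factor receptors to degradation, and PDGF receptor beta is among the receptors that this spares. In the mouse, miR-298 was described as a repressor of Bace1, which encodes a protease that cuts the amyloid precursor protein. Which arm does what in rat smooth muscle is not part of these data.

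The hairpins are shown first because they place the 4 arms that were counted. Both lie on the minus strand of chromosome 3 in the RefSeq annotation of build GRCr8, Mir298 at chr3:183470522-183470603 and Mir296 at chr3:183470069-183470146. Mir298 comes first along the transcribed strand, and 375 bases separate it from Mir296. No protein-coding gene overlaps them, their neighbours among protein-coding genes are Npepl1 and Gnas, and no other hairpin of the RefSeq table lies within 100 kb. In the hairpins below, the mature arms are in capitals, the 5p arm first.
Mir298: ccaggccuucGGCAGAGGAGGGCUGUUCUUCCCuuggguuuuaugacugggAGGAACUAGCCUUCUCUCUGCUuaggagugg
Mir296: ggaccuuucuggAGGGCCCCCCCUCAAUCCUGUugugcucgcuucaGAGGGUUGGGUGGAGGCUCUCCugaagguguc

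**Figure D1:**
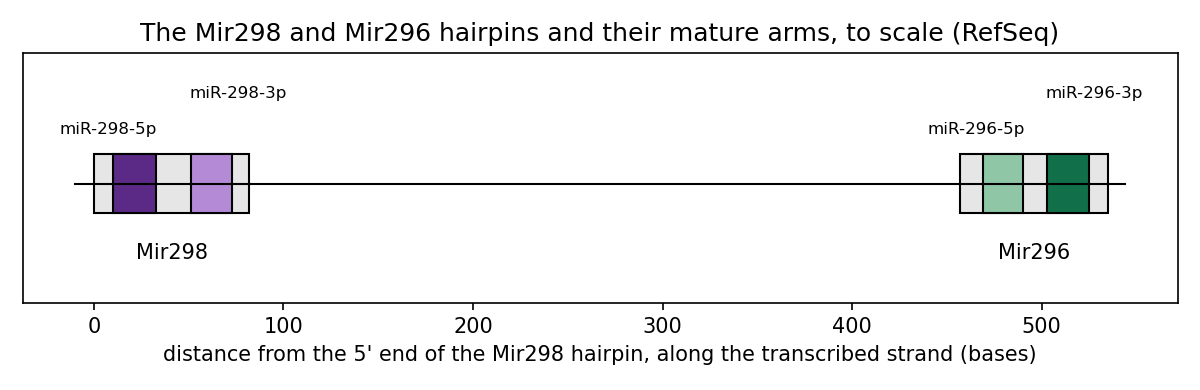
Map of the cluster. The horizontal axis is the distance in bases from the 5′ end of the Mir298 hairpin along the transcribed strand, grey boxes are the hairpins and coloured boxes their mature arms. The 375 bases between the hairpins take up most of the map.

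The mature arms follow, from RefSeq, with the seed (bases 2 to 8, which pair with target transcripts) in capitals.
miR-298-5p: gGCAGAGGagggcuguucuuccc
miR-298-3p: aGGAACUAgccuucucucugcu
miR-296-5p: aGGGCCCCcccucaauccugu
miR-296-3p: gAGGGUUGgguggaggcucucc
The 4 seeds differ from each other, and 0 of the other rat miRNAs among the 693 with a RefSeq sequence carry any of them. The arms do not form a seed family, so a change of the cluster is a change of 4 separate seeds. The arms are 21 to 23 bases long. Their base composition was compared with that of the 276 tested miRNAs that have a sequence (90.8% of 304). G and C made up 68.2% of miR-296-3p, 66.7% of miR-296-5p and 65.2% of miR-298-5p, at ranks 4, 5 and 10, against a median of 47.6%. miR-298-3p, at 50%, held rank 90.

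Levels are given as CPM, the count of a miRNA relative to the total of its library, scaled by TMM factors. These factors correct for libraries in which a few miRNAs take many of the counts. Differentiated libraries had totals of 1783409 to 3850232 counts, PDGF-BB libraries 1982051 to 3568888 and edited libraries 3149262 to 11392178. TMM factors were 0.847 to 0.913, 0.912 to 1.03 and 1.15 to 1.29 in the same order. Smooth muscle markers, the arms of miR-143 and miR-145 with miR-1-3p and miR-133a-3p, summed to between 214841 and 251391 CPM in differentiated, 133158 and 171191 in PDGF-BB and 37105 and 63115 in edited cells. All 6 of these markers had a count in each group.

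miR-298-5p was the most abundant arm. It lay at 27.1, 21.6 and 26.5 CPM in differentiated replicates 1, 2 and 3, at 31.5, 22.6 and 32.4 CPM in PDGF-BB replicates and at 164, 275 and 249 CPM in edited replicates. Differentiated and PDGF-BB libraries overlapped, and the 3 edited libraries lay above all of them. The means were 25.1 ± 3.02, 28.8 ± 5.44 and 229 ± 57.9 CPM (SD, n = 3 each). By its mean it held rank 188 of 442 miRNAs with a count in differentiated cells, 188 of 455 in PDGF-BB cells and 104 of 474 in edited cells.

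miR-298-3p, the opposite arm of the same hairpin, was close to the counting limit outside the edited cells. Its counts were 5, 3 and 2 in differentiated, 1, 3 and 4 in PDGF-BB and 15, 157 and 76 in edited replicates 1, 2 and 3. In CPM these were 3.31, 0.854 and 1.08, then 0.553, 1.21 and 1.09, then 4.15, 10.7 and 8.98. The floor, set at 3 counts as what a count of 0 leaves possible, was 0.817 to 1.99 CPM in differentiated and PDGF-BB libraries, so the low values of this arm cannot be ordered. Edited replicate 1 lay only 1.25-fold above differentiated replicate 1, the nearest pair of libraries of those groups.

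miR-296-3p was the leading arm of the second hairpin. It lay at 6.62, 9.96 and 8.12 CPM in differentiated, 12.2, 14.9 and 12.5 CPM in PDGF-BB and 70.3, 133 and 127 CPM in edited replicates 1, 2 and 3. The 3 groups did not overlap, with differentiated lowest and edited highest. The means were 8.23 ± 1.67, 13.2 ± 1.49 and 109.9 ± 34.5 CPM (SD, n = 3 each).

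miR-296-5p had counts of 2, 9 and 2 in differentiated, 5, 5 and 10 in PDGF-BB and 44, 495 and 250 in edited replicates. In CPM it lay at 1.32, 2.56 and 1.08, then 2.77, 2.01 and 2.72, then 12.2, 33.7 and 29.5. The first 2 groups overlapped near the counting floor, and every edited library lay above them. The means were 1.66 ± 0.793, 2.5 ± 0.422 and 25.2 ± 11.4 CPM (SD, n = 3 each).

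**Figure D2:**
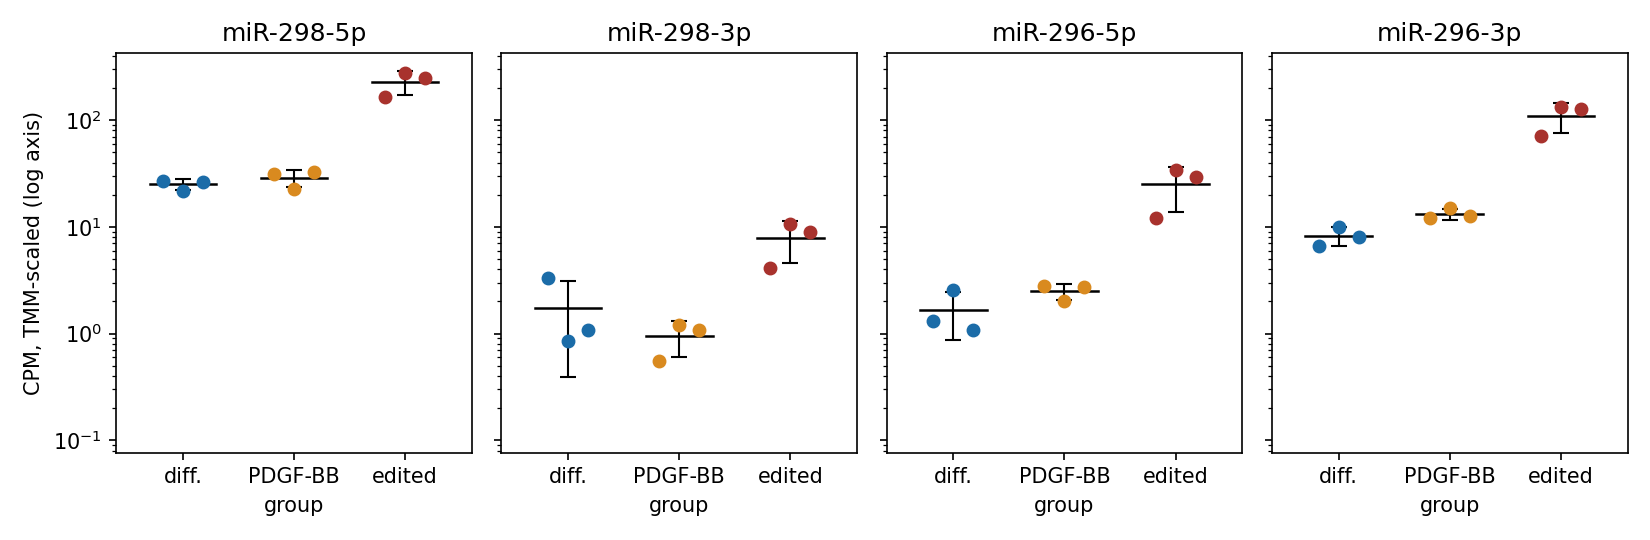
Level of each arm in CPM scaled by TMM factors, on a log axis, in differentiated (diff.), PDGF-BB and edited cells. Points are libraries (replicates 1 to 3 from left to right), lines are means and bars are SDs over 3 libraries. Edited libraries lie above the others for each arm, and edited replicate 1 is the lowest of its group in each panel.

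Summed over the 4 arms, differentiated libraries held 35.0 to 38.4 CPM, PDGF-BB libraries 40.7 to 48.7 CPM and edited libraries 251 to 452 CPM. Edited replicate 1 was the lowest edited library for each arm and replicate 2 the highest, an order that also holds for the totals of these libraries. The level thus moved with depth within the edited group, and the part of depth in the result was not tested. Without edited replicate 1 the log2 fold changes over differentiated cells were larger, as given with that comparison.

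The first comparison asks what PDGF-BB does to the cluster. Its counts outside the edited cells were low, and neither arm with a test passed. In an edgeR quasi-likelihood model over the 304 miRNAs abundant enough to test, 10.2% passed in either direction at an adjusted p of 0.05. The arms miR-298-3p and miR-296-5p were abundant enough only because of the edited libraries, and a filter on the differentiated and PDGF-BB libraries alone keeps miR-298-5p and miR-296-3p. Of these 2 arms 0 passed in edgeR, DESeq2 called 0, and 0 had an unadjusted p under 0.05 by either tool. The other arms are described with no test.

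miR-296-3p, whose PDGF-BB libraries all lay above the differentiated ones, had a log2 fold change of 0.63 ± 0.32 (SE) with a 95% interval from −0.085 to 1.35 and an edgeR adjusted p of 0.260. Of all tested miRNAs, 18.1% had PDGF-BB libraries that lay wholly above the differentiated ones, so such a separation was common in this comparison. With only the 6 compared libraries in the fit the value was 0.65 and the edgeR adjusted p 0.0818. For miR-298-5p the log2 fold change was 0.22 ± 0.24, with an interval from −0.32 to 0.76 and an edgeR adjusted p of 0.625. That interval reaches from a small fall to a rise of less than 1 on the log2 scale.

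For the low arms the errors were wide. miR-296-5p had a log2 fold change of 0.43 ± 0.67 (SE), and 1.06 without differentiated replicate 2. miR-298-3p had −0.58 ± 0.80, and without differentiated replicate 1 its sign turned, to 0.10. At 1 to 10 counts in each of these libraries, both values lie within 1 SE of no change.

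The second comparison sets edited against differentiated cells. It is the contrast that drew attention to the cluster, so its values are a description. The log2 fold changes were 3.78 ± 0.49 for miR-296-5p, 3.69 ± 0.29 for miR-296-3p, 3.21 ± 0.23 for miR-298-5p and 2.45 ± 0.53 for miR-298-3p, at ranks 2, 3, 6 and 14 of 304 from the top. Edited libraries lay above the differentiated ones for each of the 4 arms, as they did for 31.6% of all tested miRNAs. The ratio of mean CPM was 15.2 for miR-296-5p, 13.4 for miR-296-3p, 9.14 for miR-298-5p and 4.54 for miR-298-3p. Without edited replicate 1 the log2 fold changes were 4.09, 3.94, 3.43 and 2.74 in that order. Single differentiated libraries moved the low arms further. The value of miR-296-5p was 4.42 without differentiated replicate 2, which held 9 of its 13 counts in that group. The value of miR-298-3p was 3.15 without differentiated replicate 1, which held 5 of 10.

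Against PDGF-BB cells, edited cells differed by a log2 fold change of 3.35 ± 0.45 for miR-296-5p, 3.06 ± 0.27 for miR-296-3p, 3.02 ± 0.55 for miR-298-3p and 2.99 ± 0.23 for miR-298-5p. The 4 values spanned 2.99 to 3.35, less than the largest of their SEs, and held ranks 1, 5, 6 and 7 from the top. Edited and PDGF-BB libraries did not overlap for any arm, and 27.3% of all tested miRNAs had edited libraries wholly above the PDGF-BB ones. The comparison uses the same edited libraries as the one that drew attention to the cluster, so it gets no test either.

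**Figure D3:**
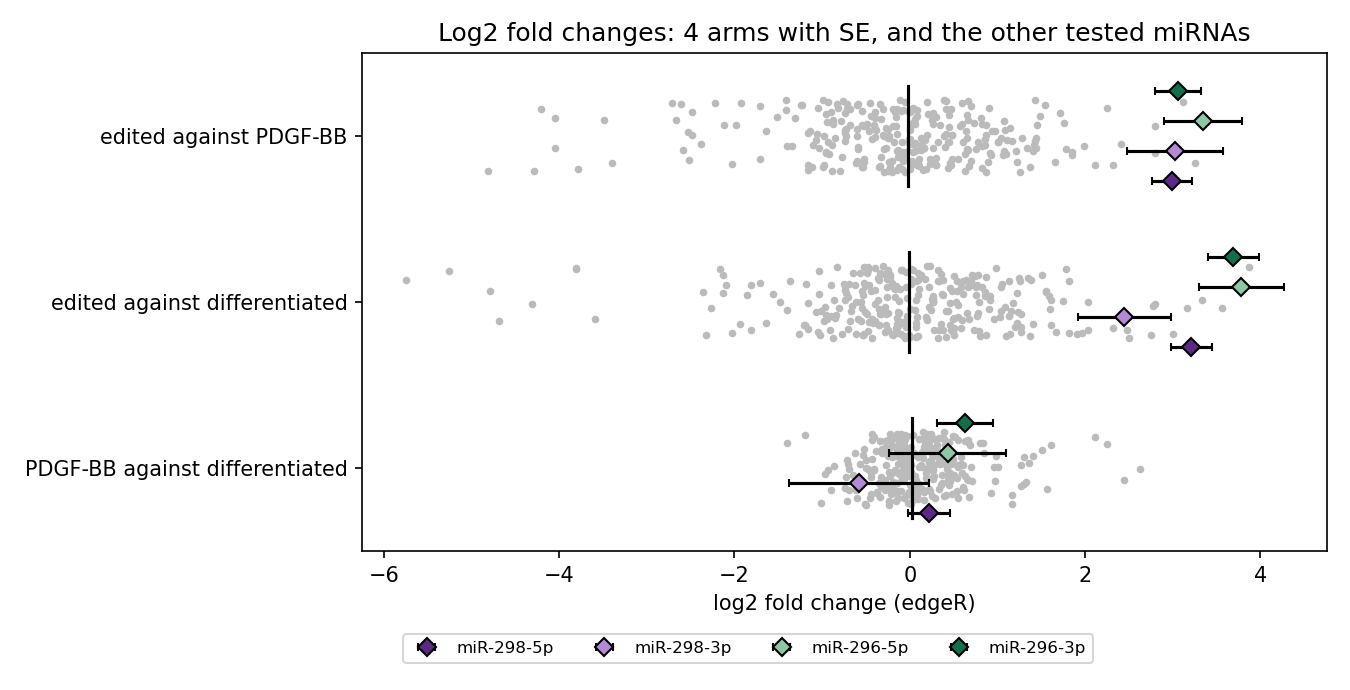
Log2 fold changes from edgeR in the 3 comparisons. Diamonds are the 4 arms with bars of 1 SE, grey points are the other tested miRNAs (spread vertically for legibility) and black lines mark the median of all. The arms lie at the right edge in both edited comparisons, from 2.45 to 3.78 against differentiated cells, and among the other miRNAs in the PDGF-BB comparison.

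Scaling moved the 4 values of edited over differentiated cells and left their order as it was. With library totals in place of TMM factors, the median of all tested miRNAs shifted by 0.45 in edited against differentiated, 0.32 in edited against PDGF-BB and 0.13 in PDGF-BB against differentiated cells. The members shifted with it, to 4.23 for miR-296-5p and 3.67 for miR-298-5p in edited over differentiated cells. In edited against differentiated cells 59.2% of all tested miRNAs passed, 98 higher and 82 lower with TMM factors, and 151 and 40 with library totals. In edited against PDGF-BB cells, where 58.9% passed, the splits were 85 and 94, and 124 and 52. In PDGF-BB against differentiated cells they were 22 and 9, and 24 and 2, with 24 and 24 by DESeq2.

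Markers of other cell types were set beside the cluster. The endothelial marker arms of miR-126a summed to 1760 to 2145 CPM in differentiated libraries, 1791 to 1895 CPM with PDGF-BB and 2905 to 3346 CPM in edited ones. Neural markers, of which miR-9a arms had counts and both miR-124 arms were at 0 in every library, summed to 32.4 to 41.1, 26.7 to 31.4 and 144 to 145 CPM. Blood markers summed to 26.2 to 36.4, 21.8 to 30.4 and 18.2 to 25.7 CPM, and epithelial markers to 74.6 to 105, 38.1 to 53.2 and 22.4 to 49.3 CPM. For blood and epithelial markers, edited and PDGF-BB libraries overlapped. Fewer cells of a type and less RNA per cell cannot be told apart in bulk RNA, and the part of these markers in the rise of the cluster was not tested. Base composition was set beside the cluster too. The 71 tested miRNAs with a G and C content of at least 54.5%, which include the cluster's arms other than miR-298-3p, had a median log2 fold change of −0.16 in edited against differentiated cells, where all 276 with a sequence had −0.032.

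Which arm dominates a hairpin can be read within each library, free of scaling. In counts, the 5p arm led in miR-298 and the 3p arm in miR-296, in every library. The 5p share of miR-298 was 89.1%, 96.2% and 96.1% in differentiated, 98.3%, 94.9% and 96.7% in PDGF-BB and 97.5%, 96.2% and 96.5% in edited replicates. The 95% Wilson interval ran from 77.0% to 95.3% in differentiated replicate 1, the lowest, and from 95.6% to 96.8% in edited replicate 2, the deepest. Differentiated replicate 1 rests on 41 counts of the 5p and 5 of the 3p arm, and its interval lies below that of edited replicate 2. Each edited library lay above each differentiated one, though replicate 2 of both groups rounds to the same share, and PDGF-BB libraries overlapped both groups. Differentiated replicates 2 and 3 rest on 3 and 2 counts of the 3p arm. Their intervals, 89.4% to 98.7% and 86.8% to 98.9%, hold all the edited shares, so counting error covers the order for these libraries. How well each arm enters a library was not tested, so a share of counts is not a share of molecules.

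The 5p share of miR-296 was 16.7%, 20.5% and 11.8% in differentiated, 18.5%, 11.9% and 17.9% in PDGF-BB and 14.8%, 20.2% and 18.9% in edited replicates. The groups overlapped throughout. The means were 16.3% ± 4.36, 16.1% ± 3.64 and 18% ± 2.86 (SD, n = 3 each). The widest interval, 4.70% to 44.8% in differentiated replicate 1, rests on 2 counts of the 5p and 10 of the 3p arm, and the narrowest, 18.7% to 21.9%, belongs to edited replicate 2. In edited cells the 5p share thus stayed in the range it had in the other cells, while the level of the hairpin's arms was 13.4-fold and 15.2-fold higher than in differentiated cells.

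As log2 ratios of 5p to 3p counts with 2 counts added to each, miR-296 lay at −1.81 ± 0.26, −2.09 ± 0.36 and −2.18 ± 0.26 and miR-298 at 3.42 ± 0.71, 4.06 ± 0.45 and 4.85 ± 0.25 in differentiated, PDGF-BB and edited cells. The added counts pull the ratio of shallow libraries towards 0. With 0.5 counts added miR-298 lay at 3.89, 4.67 and 4.91, and miR-296 at −2.20, −2.32 and −2.20, with no order left in miR-296.

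**Figure D4:**
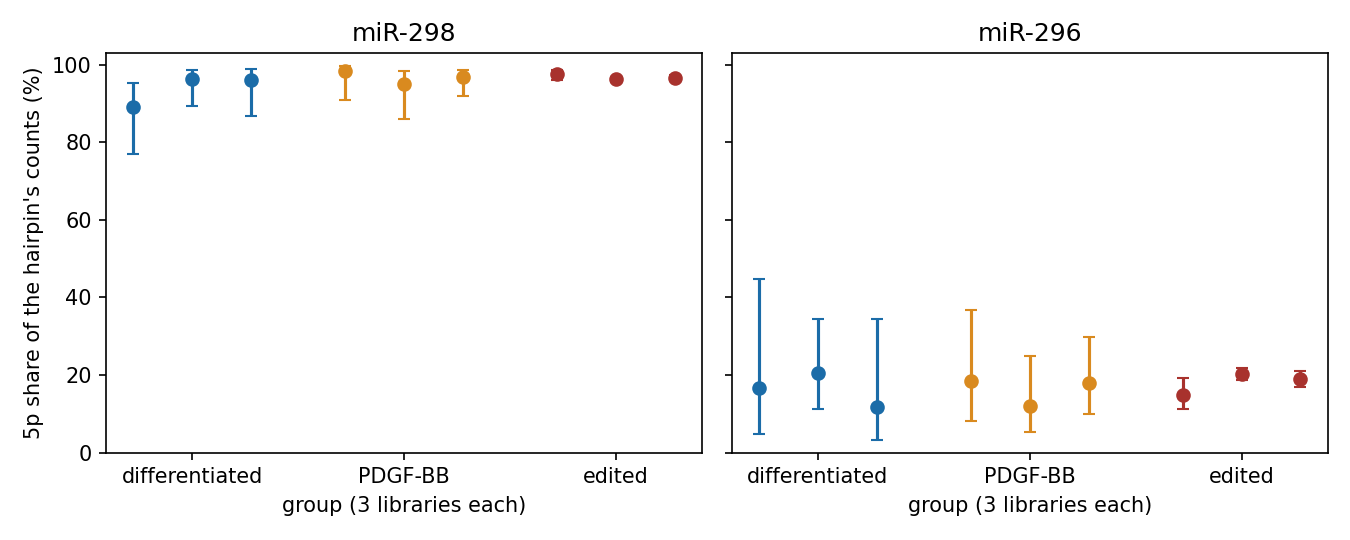
Share of each hairpin's counts that came from the 5p arm, in percent, with a point per library and bars for the 95% Wilson interval, which covers counting error only. miR-298 lies between 89.1% and 98.3% and miR-296 between 11.8% and 20.5%, with all groups overlapping in miR-296. In miR-298 the PDGF-BB libraries overlap both other groups, and the edited libraries lie above the differentiated ones by a narrow margin. The intervals of differentiated replicates 2 and 3 hold all the edited shares.

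The leading arms of the hairpins were also set against each other within each library. Per count of miR-296-3p there were 4.10, 2.17 and 3.27 counts of miR-298-5p in differentiated, 2.59, 1.51 and 2.59 in PDGF-BB and 2.33, 2.07 and 1.97 in edited replicates. The means were 3.18 ± 0.967, 2.23 ± 0.621 and 2.12 ± 0.189 (SD, n = 3 each). Differentiated and edited libraries overlapped through differentiated replicate 2 alone, at 2.17, so these counts do not settle whether the proportion was kept. The edited libraries, with at least 254 counts of each arm, were the closest to each other.

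By pattern over the 9 libraries, miR-296-3p was compared with 300 other tested miRNAs. Each was expressed as log2 CPM minus its own mean in differentiated cells, and likeness was the root-mean-square distance. The nearest was miR-182 at a distance of 0.370. Next came miR-96-5p at 0.420, then miR-183-5p at 0.515. The arms of miR-146b came next, 3p at 0.717 and 5p at 0.771, and the median of all 300 was 2.17. The cluster was chosen for its rise in edited cells, so miRNAs without such a rise lie far from it by that choice. The ranking thus mainly lists other miRNAs with a large rise in edited cells. Within the cluster, miR-296-5p lay at a distance of 0.288, miR-298-5p at 0.498 and miR-298-3p at 1.28.

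The 5 differed in the PDGF-BB cells. The first of them, clustered miRNAs known from sensory cells, lay 0.50 for miR-182, 0.26 for miR-96-5p and 0.16 for miR-183-5p above differentiated cells on this log2 scale, with miR-296-3p at 0.67. The 3p and 5p arms of miR-146b, a close relative of the NF-kappaB target miR-146a, lay 1.49 and 1.40 above. In edited cells the 5 lay between 2.77 and 3.90 and miR-296-3p at 3.63. These distances describe likeness over libraries of 3 groups.

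**Figure D5:**
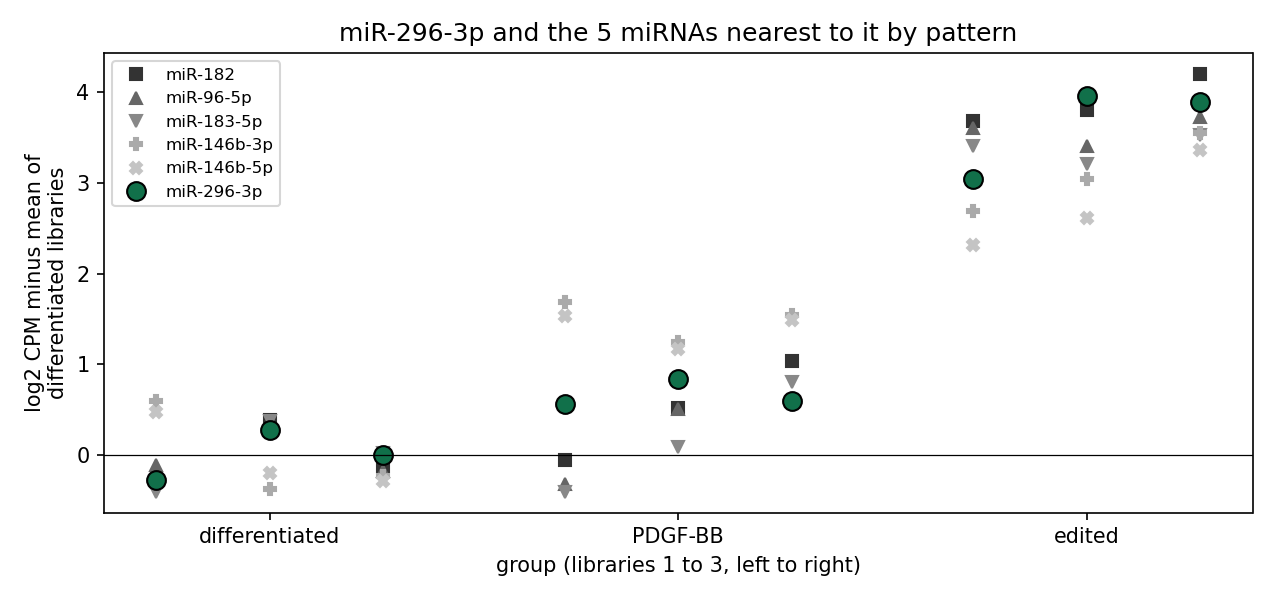
miR-296-3p (green circles) and the 5 miRNAs nearest to it, as log2 CPM minus each miRNA's mean over differentiated libraries, by library. All 6 lie above 2 in each edited library, and the miR-146b arms lie highest in PDGF-BB cells.

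Since the cluster is imprinted in the mouse, miRNAs of other imprinted loci were set beside it: miR-335, which lies in Mest, miR-483 of Igf2, miR-675 of H19, and families that in the mouse fill an intron of Sfmbt2. The list was chosen with earlier results of these data known, and it leaves out the imprinted Dlk1-Dio3 cluster, so it does not stand for imprinted miRNAs as a whole. In RefSeq all 4 rat Mir466 hairpins lie within Sfmbt2, while rat Mir297 lies on chromosome 10, so the mouse assignment does not hold for it. Of 12 arms listed, 7 had a count and 6 were tested, miR-335 and 5 arms of miR-466b and miR-466c. The arms of miR-483 and miR-675 and miR-297 had 0 counts in all 9 libraries.

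In edited against differentiated cells all 6 tested arms rose, where 32.2% of all tested miRNAs passed upwards, and their median log2 fold change was 1.41 against −0.0064 for all. miR-335 rose by a log2 fold change of 1.60 ± 0.26, with 24.1 ± 3.10 CPM in differentiated and 73.5 ± 22.1 CPM in edited cells (edgeR adjusted p = 7.6e-04). miR-466c-3p rose from 17.1 ± 4.06 to 51.6 ± 7.60 CPM (1.55 ± 0.20, edgeR adjusted p = 2.0e-04), miR-466c-5p from 159.6 ± 26.4 to 315 ± 57.6 CPM (0.98 ± 0.17, 0.00108) and miR-466b-5p from 88.0 ± 24.1 to 213 ± 43.6 CPM (1.26 ± 0.24, 0.00162). miR-466b and miR-466c share much of their sequence, so how reads were split between them is uncertain and the 5 arms are not independent.

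The other comparisons of that list were less even. In PDGF-BB against differentiated cells 0 of 6 passed in edgeR and 0 in DESeq2, while 2 had an unadjusted p under 0.05, and the median was 0.45 against 0.031 for all. With only the 6 compared libraries 1 passed upwards, as it did without differentiated replicate 2 and without edited replicate 1. In edited against PDGF-BB cells 5 of 6 rose, where 28% of all passed upwards, with a median of 0.66 against −0.022. That count fell to 2 without PDGF-BB replicate 1, PDGF-BB replicate 2, edited replicate 2 or edited replicate 3. The miR-296 and miR-298 arms had larger log2 fold changes in edited over differentiated cells, from 2.45 to 3.78, than the 6 tested arms of the listed loci, from 0.98 to 1.62, a difference between lists that has no test because the cluster was chosen for its size.

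A second list held 40 arms that work on endothelium links to vessel growth, as it does miR-296, of which 32 were tested. After PDGF-BB 5 rose and 0 fell, where 7.24% of all passed upwards and 2.96% downwards, and the median was 0.39 against 0.031 for all. Both arms of miR-222 were among them, miR-222-5p (2.45 ± 0.32, edgeR adjusted p = 0.00280) and miR-222-3p (0.99 ± 0.20, 0.0131). The others were miR-221-3p (1.01 ± 0.16, 0.00645), miR-23a-5p (1.30 ± 0.34, 0.0397) and miR-27a-5p (0.55 ± 0.15, 0.0418). miR-221 and miR-222 share a cluster, as do miR-23a and miR-27a, so the 5 arms are not independent. The count was 3, 2 and 1 without differentiated replicates 1, 2 and 3, 2, 2 and 3 without PDGF-BB replicates 1, 2 and 3, and 3 without edited replicate 2.

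In edited against differentiated cells 9 arms of the vessel list rose and 10 fell, where 32.2% of all passed upwards and 27% downwards, with a median log2 fold change of −0.15. Those with the smallest adjusted p were miR-27b-3p (1.61 ± 0.19, edgeR adjusted p = 1.1e-04) and miR-23b-3p (1.16 ± 0.14, 1.4e-04), which rose, and miR-130a-3p (−0.95 ± 0.13, 2.3e-04) and miR-222-3p (−1.40 ± 0.20, 3.7e-04), which fell. The split was 14 and 6 with library totals, and the number that fell was 6 without differentiated replicate 1 or 2 and 5 without edited replicate 2 or 3. In edited against PDGF-BB cells 7 rose and 15 fell, where 28% and 30.9% of all did, with a median of −0.47. Against differentiated cells the shares of the list that rose and fell in edited cells, 9 and 10 of 32, lay near those of all tested miRNAs. Against PDGF-BB cells 15 of 32 fell, a larger share than of all tested miRNAs, and 7 rose, a smaller one. Most of those that fell were arms of the clustered miR-17, miR-18a, miR-19a, miR-19b, miR-20a and miR-92a. Or they came from miR-221 and miR-222, which form another cluster, so the 15 are not independent. The list as a set was not tested.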

How the data were processed

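The labels' protocols describe total RNA isolated with a miRNeasy kit, QIAseq small RNA libraries and single-end NextSeq sequencing. Per the submitters' processing notes the build was Rnor 6.0. Aligner, counting tool and use of molecular identifiers were not given in the sources used here. Values, as deposited, are raw counts for each mature miRNA, and the authors made 1 column per sample, each matched to a sample by its title, with 0 other columns. Whether a count is a read or a molecule is not known, and intervals and floors cover counting error only.

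All 9 libraries entered 1 edgeR 4.0.16 quasi-likelihood model (R 4.3.3) with 1 mean for each group and TMM factors. The filterByExpr filter, at its minimum of 10 counts, came first, and 304 of the 502 miRNAs with a count passed it. An SE was obtained from the log2 fold change and the F statistic of its test. P-values were adjusted by Benjamini-Hochberg over all 304 at a threshold of 0.05, and DESeq2 1.42.0 was an alternative. The common biological coefficient of variation was 0.179. On simulated counts for PDGF-BB against differentiated, with 290 miRNAs tested, 90.6% of those raised by 1 on the log2 scale passed and 92.6% of those lowered by 1. The simulation gave every miRNA this same variation. Its shares therefore do not tell how often such a change would pass for any arm of the cluster, the tested ones included. No replicate pair agreed within sampling noise. Chi-square over its degrees of freedom was 15.0 to 58.4 for differentiated and PDGF-BB pairs and 328 to 576 for edited pairs. This value grows with depth, and the edited group holds the deepest libraries. Log2 CPM for patterns had a prior count of 2. Mature sequences were matched to RefSeq by name for 686 of 762 miRNAs and all 4 members.

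The members and the lists were chosen with earlier results of these data known. The named miRNAs were the 4 members, the 5 nearest by distance, and at most 4 arms per list and comparison by smallest adjusted p, besides miR-27a-5p, named after its value was seen. Alternatives tried were library totals, DESeq2, no filter, only the compared libraries, a term for the replicate number, and leaving out each library.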

Additional observations from a re-analysis of the deposited data

How the results depend on the processing

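Of 397 values from alternative settings, 361 were classed as the same, by direction, side of the threshold or the spread between replicates. For counts of calls that class was broad. In edited against differentiated cells it held 139 calls without edited replicate 3 and 207 without edited replicate 1, against 180. In PDGF-BB against differentiated cells neither miR-296-3p (edgeR or DESeq2 adjusted p from 0.0719 to 0.453) nor miR-298-5p (0.422 to 0.852) passed under any setting run, and 1 value turned its sign, miR-298-3p at 0.10 without differentiated replicate 1. Without 1 library, log2 fold changes in that comparison ran from −1.06 to 0.10 for this arm, 0.19 to 1.06 for miR-296-5p, 0.54 to 0.83 for miR-296-3p and 0.10 to 0.37 for miR-298-5p. miR-298-3p and miR-296-5p have no value with only the 6 compared libraries, where the filter drops them. In edited against differentiated cells library totals moved miR-296-3p to 4.14 and miR-298-5p to 3.67, by the shift of all miRNAs, and the level of miR-298-5p in differentiated cells to 21.9 CPM. With a prior of 0.5 the 5p to 3p log2 ratio was −2.20 for miR-296 in differentiated and 4.67 for miR-298 in PDGF-BB cells.

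The number of miRNAs that passed in PDGF-BB against differentiated cells was 48 with DESeq2 and from 3 (without differentiated replicate 3) to 53 (without edited replicate 1) when 1 library was left out, against 31. It was 16 and 12 without differentiated replicates 1 and 2, and 12, 12 and 18 without PDGF-BB replicates 1, 2 and 3. The cause was not tested. The vessel list had 3 arms higher there with no filter and from 1 to 7 without 1 library. In edited against differentiated cells that list had 14 higher and 6 lower with library totals, and from 5 to 12 lower without 1 library. The imprinted list had 2 higher with the replicate block, 1 with only the compared libraries and from 0 to 1 without 1 library in PDGF-BB against differentiated cells, and from 2 to 5 without 1 library in edited against PDGF-BB cells.

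With the replicate block the counts of calls were 29, 182 and 181 against 31, 180 and 179 in the 3 comparisons, and miR-296-3p had a log2 fold change of 0.67 in PDGF-BB against differentiated cells (edgeR adjusted p = 0.122). The labels do not say that equal numbers share anything. Deviations of same-numbered libraries correlated above 0.1 in 4 of 9 pairs, while the pair with the highest value, 0.523, had different numbers. Not every library was nearest to its own number. Of the 5 miRNAs nearest to miR-296-3p, 4 were also among the 5 nearest to miR-296-5p. Depth limits miR-298-3p and miR-296-5p outside the edited cells.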
